A study of Homo sapiens with 6 samples.

Results

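OAS1, OAS2, OAS3 and OASL make up the 2′-5′-oligoadenylate synthetase (OAS) family of the human genome, and here the 4 genes were taken by their symbols out of 20802 genes measured, by a rule that used no measured value, although earlier results of these data were known when the family was picked. Each library gives 1 amplicon per gene, a short stretch of the transcript that is amplified from cDNA and sequenced, and the level of a gene is its number of reads or its RPM, the same number scaled by the authors to the library's total. The labels give the cells as MCF10A, an established, non-tumorigenic mammary epithelial line, in 3 forms with 2 libraries each; the library labelled WT replicate 1 went against that label in its marker genes, as given below. MCF10A GIRK1 had been stably transfected with the plasmid pIRES2eGFP carrying the coding sequence of human GIRK1 (gene KCNJ3, a subunit of G-protein-gated potassium channels) together with eGFP, selected with G418 and sorted on eGFP fluorescence. MCF10A eGFP had received the plasmid without GIRK1 and the same selection and sorting, and MCF10A WT was the untransfected parental line. The labels name no treatment with interferon or virus. The number of independent transfected pools or clones behind each form is not given, so p-values measure only the spread between these libraries, which may be technical.

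OAS1, OAS2 and OAS3 are enzymes that bind double-stranded RNA, a hallmark of many virus infections, and then join ATP into short chains linked from the 2′ to the 5′ position (2-5A). The chains are a second messenger of the antiviral response. OASL carries a related fold without synthetase activity and a ubiquitin-like tail, and is known to strengthen signalling through the RNA sensor RIG-I. All of these synthetase genes are textbook targets of type I and type III interferon, through the complex ISGF3, which contains STAT2 and IRF9 and binds repeats of GAAA in their promoters.

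OAS1, OAS3 and OAS2 lie side by side, in that order and on the plus strand, on chromosome 12 (GRCh38, GENCODE annotation). OAS1 spans chr12:112906777-112933222, OAS3 spans chr12:112938352-112973249 and OAS2 spans chr12:112978395-113011723. The gaps between them are 5.13 and 5.15 kb, and the cluster covers 105 kb. OASL stands 8.01 Mb further along the same chromosome, on the minus strand, at chr12:121019111-121039242. The amplicons were 105 to 108 bases long and were read on transcripts NM_016816 (OAS1, bases 759 to 865 of the reference used), NM_016817 (OAS2, 1600 to 1707), NM_006187 (OAS3, 669 to 776) and NM_003733 (OASL, 1127 to 1231). With 1 amplicon per gene, isoforms cannot be told apart. Each amplicon also has its own efficiency, so values were compared between libraries and the levels of different genes were not ranked.

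RefSeq promoter entries (GRCh38.p14) were at hand for 2 of the 4 members, OAS1 and OAS3. The stretches below are shown because they hold the GAAA repeats that interferon-responsive promoters share, with capitals for the repeats that a search found on the plus strand, GAAANGAAA (spacer of 1 base) and GAAANNGAAA (spacer of 2 bases). Positions are counted from the annotated start, which is 0.
OAS1, chr12:112906932-112906961, plus strand, bases -30 to -1: cctcccttctgagGAAACGAAAccaacagc
OAS3, chr12:112938224-112938351, plus strand, bases -250 to -123: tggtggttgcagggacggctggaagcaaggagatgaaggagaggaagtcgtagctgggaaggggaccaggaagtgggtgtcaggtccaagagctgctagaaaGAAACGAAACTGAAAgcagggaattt
OAS3, chr12:112938444-112938473, plus strand, bases -30 to -1: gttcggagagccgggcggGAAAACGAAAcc
The repeat of OAS1 has a spacer of 1 base and lies at -17 to -9. In OAS3 a repeat with a 1-base spacer at -148 to -140 overlaps one with a 2-base spacer at -143 to -134, and a further 2-base-spacer repeat ends 3 bases before the start. The 30-base stretches also fall in the 5′ untranslated first exon of GENCODE transcripts that start further upstream (3 transcripts of OAS1 and 2 of OAS3), whereas the 128-base stretch of OAS3 lies before any GENCODE transcript of the gene. On either strand, and over 300 bases around the start, the 1-base form is found in 3.12% of 35116 RefSeq promoters, the 2-base form in 3.57% and at least one of them in 6.40%. The 1-base form, the only one held by OAS1, was chosen after the sequences were seen. A match of letters is a description and not a bound site.

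The libraries were checked before the members were compared. The totals ran from 2506120 to 16040556 reads, and 3 reads, the smallest count taken here as detected, corresponded to 0.187 to 1.20 RPM. KCNJ3 had 2408 and 3677 reads in the MCF10A GIRK1 libraries and 0 in both MCF10A eGFP libraries and in WT replicate 2, which is at least 489-fold higher than eGFP when the 3-read floor of the shallower eGFP library is used. Markers of basal mammary epithelium (8 genes, led by KRT5 and KRT17) summed to 8318 to 15315 RPM in 5 libraries, with TP63 at 0 reads in all 6. The library labelled WT replicate 1 stood apart, with 396 RPM of basal markers, 16395 RPM of luminal markers against 531 to 1024 RPM in the others, ESR1 at 192 RPM and 48 KCNJ3 reads. It is therefore shown apart, and MCF10A GIRK1 was compared with MCF10A eGFP (4 libraries) and with MCF10A eGFP and WT replicate 2 taken as 1 control group (5 libraries). The comparisons share libraries and are not independent of each other. In the deposited data both GIRK1 libraries are named with a tag of their own, which the other 4 lack. Its meaning is not given, and were it a sequencing run, the run could not be told apart from the condition.

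Levels of all 4 OAS genes were higher in both MCF10A GIRK1 libraries than in any of the 3 control libraries. Among 11389 genes tested, 21.6% showed that pattern in RPM, so the pattern alone does not single the family out. The sizes were 9.94-fold to 178-fold over the eGFP mean. All 4 passed the test against eGFP (edgeR's quasi-likelihood test, Benjamini-Hochberg adjusted p below 0.05 over 11279 genes), in which 0.78% of genes were called higher, and 3 of 4 (OAS1, OAS2 and OAS3) passed it against the 3 controls, in which 0.799% of 11389 genes were called higher. The 3 other genes of the 2-5A pathway that were read did not pass in either comparison. OAS2 entered both tests only through the GIRK1 libraries and was therefore bound to differ, and of the 3 other members 3 passed against eGFP and 2 against the 3 controls. Leaving out 1 library kept all 4 members called against eGFP, but each of these fits has a single library on one side, which is assumed to vary like the other pair, and the number of genes called in all ranged from 89 to 2933. Against the 3 controls, 1 member (OAS2) was called when either GIRK1 library was left out, 2 without eGFP replicate 2 and 4 without WT replicate 2 or without eGFP replicate 1. The fit without WT replicate 2 is the test against eGFP again. With the library labelled WT replicate 1 in the fit, 0 members were called against eGFP and 1 (OAS2) against the 4 control libraries then pooled. In bulk RNA, more cells that express a gene and more of its RNA per cell cannot be told apart.

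OAS1, the smallest synthetase, with a single enzyme unit, was read 2281 times (205 RPM) and 2521 times (244 RPM) in MCF10A GIRK1 replicates 1 and 2. It was read 99 times (19.3 RPM) and 61 times (5.96 RPM) in MCF10A eGFP, 180 times (11.2 RPM) in WT replicate 2 and 6 times (2.39 RPM) in the library labelled WT replicate 1. Both GIRK1 libraries were therefore far above every other library, the lower of them 10.6 times the highest control, and WT replicate 2 lay between the eGFP libraries. The means were 225 ± 27.1 RPM (SD, n = 2) and 12.6 ± 9.44 RPM (SD, n = 2). The log2 fold change was 4.14 (SE 0.57, adjusted p = 0.0272, edgeR) against eGFP and 4.21 (SE 0.46, adjusted p = 0.00901) against the 3 controls. The eGFP replicates differed 3.24-fold, whereas the GIRK1 replicates differed 1.19-fold.

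OAS2, the synthetase whose protein holds a pair of enzyme units, was at the edge of detection without GIRK1. MCF10A eGFP gave 4 reads (0.780 RPM) and 3 reads (0.293 RPM), against 19 reads (1.18 RPM) in WT replicate 2 and 0 in the library labelled WT replicate 1, where 3 reads would have been 1.20 RPM. In MCF10A GIRK1 there were 916 reads (82.5 RPM) and 1122 reads (108 RPM), so that the groups were separated by 69.7-fold at their nearest libraries. The log2 fold change was 7.61 (SE 0.45, adjusted p = 0.00215, edgeR) against eGFP, the 8th highest of 11279 genes, and 6.87 (SE 0.41, adjusted p = 0.000821) against the 3 controls. Since the eGFP libraries hold 7 reads between them, the pooled ratio of 208 carries a wide exact 95% counting interval of 101 to 519, which covers counting error only. OAS2 reached the level of edgeR's filter on low counts in neither eGFP library. The other members reached the filter's level in both eGFP libraries.

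OAS3, the largest synthetase, known as the main producer of 2-5A upon binding long double-stranded RNA, had its highest levels in MCF10A GIRK1, with 2746 reads (247 RPM) and 3551 reads (343 RPM). The counts were 213 (41.5 RPM) and 183 (17.9 RPM) in MCF10A eGFP, 351 (21.9 RPM) in WT replicate 2 and 27 (10.8 RPM) in the library labelled WT replicate 1. The groups did not overlap, with 5.95-fold between their nearest libraries. The mean rose from 29.7 ± 16.7 RPM (SD, n = 2) to 295 ± 67.9 RPM (SD, n = 2). The log2 fold change was 3.27 (SE 0.46, adjusted p = 0.0311, edgeR) against eGFP, and 3.43 (SE 0.40, adjusted p = 0.0120) against the 3 controls.

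OASL, the member without synthetase activity, had 347 reads (31.2 RPM) and 611 reads (59.1 RPM) in MCF10A GIRK1. The counts were 11 (2.15 RPM) and 54 (5.28 RPM) in MCF10A eGFP, 198 reads (12.3 RPM) in WT replicate 2 and 3 reads (1.20 RPM) in the library labelled WT replicate 1. The libraries still did not overlap, but the lower GIRK1 library was only 2.53 times WT replicate 2, and the controls ranged over 5.75-fold. Against eGFP the log2 fold change was 3.50 (SE 0.48, adjusted p = 0.0281, edgeR). Against the 3 controls it was 2.69 (SE 0.57, adjusted p = 0.0812), which did not pass. OASL was also lower in eGFP replicate 1 than in replicate 2, the reverse of OAS1 and OAS3, while OAS2 had only 4 and 3 reads there. The GIRK1 replicates differed 1.89-fold, more than for any other member.

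**Figure D1:**
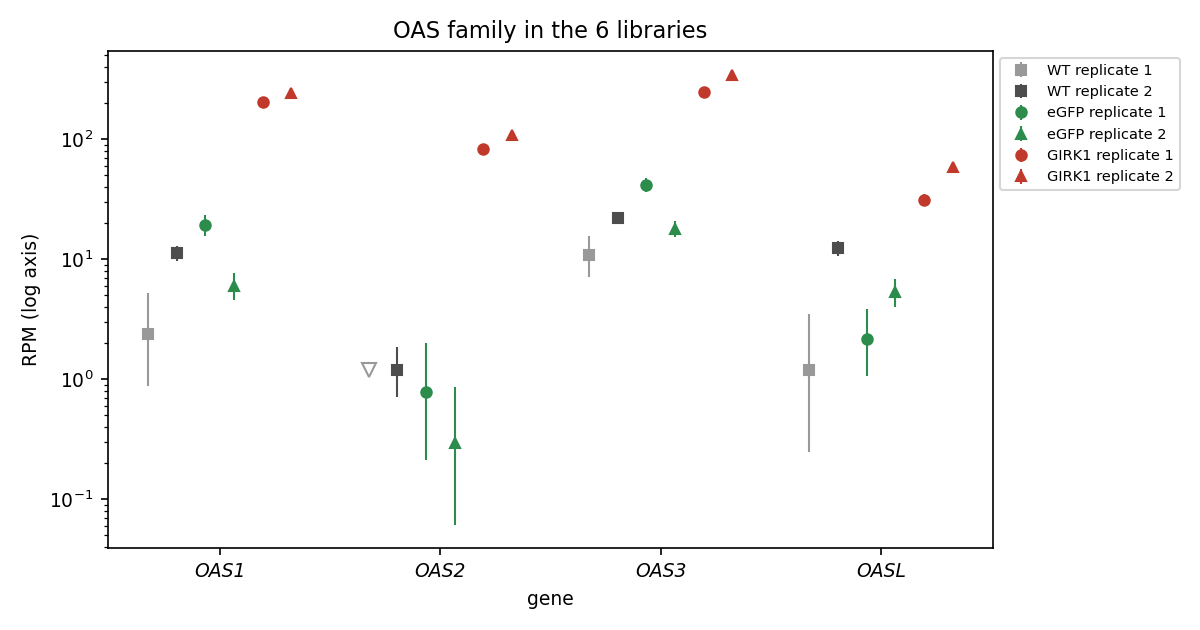
RPM on a log axis of the 4 OAS genes in each library, with exact (Clopper-Pearson) 95% intervals that cover counting error only; the open triangle is a library with 0 reads, drawn at its 3-read floor. For OAS1, OAS2, OAS3 and OASL the red GIRK1 points (31.2 to 343 RPM) sit above all other libraries.

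The levels of each gene can be put in order. MCF10A GIRK1 was highest for all 4 members. WT replicate 2 lay inside the range of the eGFP libraries for OAS1 and OAS3 and so was not set apart from them. For OASL its 12.3 RPM (95% interval 10.7 to 14.2) was above both eGFP libraries. For OAS2 the interval of its 1.18 RPM (0.71 to 1.85) overlapped those of both eGFP libraries. With 1 library, WT against eGFP was not tested. The library labelled WT replicate 1 had the lowest value for all 4, but its exact 95% interval overlapped that of an eGFP library each time. These intervals were 0.88 to 5.21 RPM for OAS1 and 7.10 to 15.7 RPM for OAS3 (both overlapping eGFP replicate 2), 0.25 to 3.50 RPM for OASL (overlapping eGFP replicate 1) and up to 1.47 RPM for OAS2 (overlapping both). Within the eGFP pair, OAS1, OAS2 and OAS3 were 2.32 to 3.24 times higher in replicate 1. The coefficient of variation of the members was 0.56 to 0.75 in eGFP and 0.12 to 0.44 in GIRK1.

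Summed over the family, MCF10A eGFP held 46.6 ± 24.3 RPM (SD, n = 2) and WT replicate 2 held 46.6 RPM, against 660 ± 133 RPM (SD, n = 2) in MCF10A GIRK1, which is 14.2-fold higher, and 14.4 RPM in the library labelled WT replicate 1. The make-up of the sum also differed. OAS2 gave 1.22%, 0.996% and 2.54% of the family's reads in eGFP replicates 1 and 2 and WT replicate 2, and 14.6% and 14.4% in the GIRK1 libraries. OAS3 gave 46.9% to 65.1% of the reads in these 3 controls, and 43.7% and 45.5% in the GIRK1 libraries. Amplicon efficiency enters the sum and the shares, which are set side by side between libraries only, and the shares were not tested.

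The other listed genes of the 2-5A pathway did not pass the test. ABCE1, a ribosome-recycling ATPase known as an inhibitor of the pathway, had 244 and 231 RPM in the eGFP line and 227 and 206 RPM in the GIRK1 line (log2 fold change -0.18, SE 0.21). PDE12, an enzyme that degrades 2-5A, had 48.8 and 42.9 RPM against 33.0 and 42.0 RPM (-0.33, SE 0.24). AKAP7, whose protein has a domain that also cleaves 2-5A, had 3.90 and 8.31 RPM against 11.3 and 10.5 RPM (0.77, SE 0.38, adjusted p = 0.324, edgeR). Its log2 fold change became 1.38 when eGFP replicate 2 was left out, a fit with a single eGFP library. In the main edgeR fits 0 of these 3 genes passed in either comparison, with 0 at an unadjusted p below 0.05 in both, and 0 passed with DESeq2. These tests do not show that the levels were equal.

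**Figure D2:**
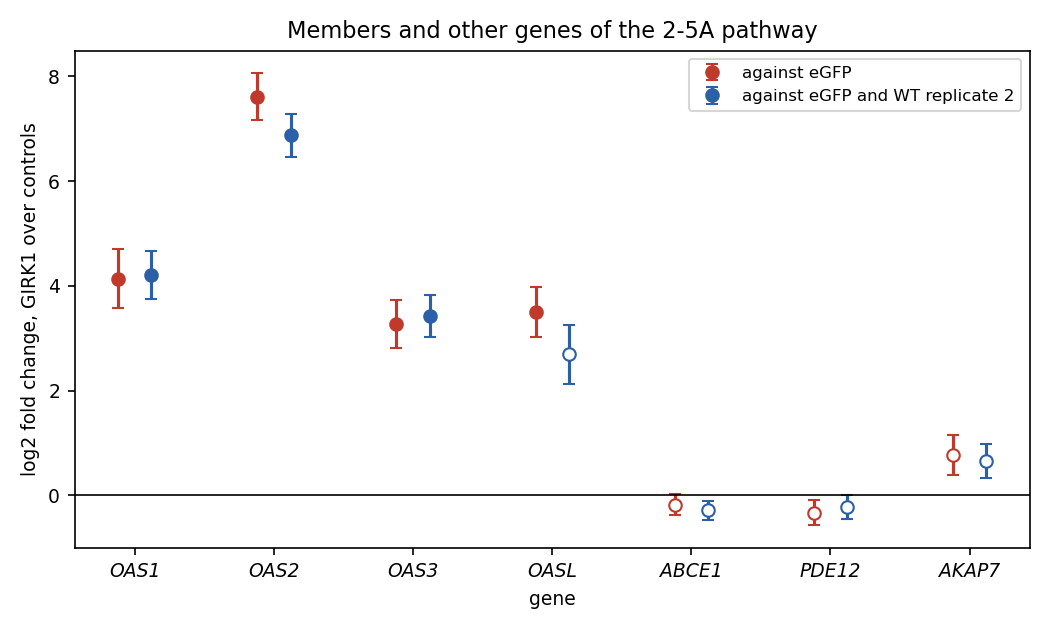
Log2 fold changes of MCF10A GIRK1 over MCF10A eGFP (red) and over eGFP and WT replicate 2 (blue) with standard errors from edgeR; filled points passed an adjusted p of 0.05 and open points did not. The 4 OAS genes lie between 2.69 and 7.61, and ABCE1, PDE12 and AKAP7 lie between -0.33 and 0.77.

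Genes next to the members were read to see whether the differences extended along chromosome 12. Of 27 genes read within 500 kb of the cluster or of OASL, 18 could be tested, and 0 passed in either comparison (3 had an unadjusted p below 0.05 in each). Around the cluster, 6 tested genes had log2 fold changes from -0.95 to 0.53 against eGFP. RPH3A, which starts to the left of OAS1 and ends 7.90 kb before it, and DTX1, which starts 45.0 kb after OAS2, had 0 reads in all 6 libraries. Around OASL, 12 tested genes ranged from -0.90 to 0.88. DESeq2 called 2 of these neighbours in each comparison, MLEC higher and TPCN1 lower, where it called 681 and 773 of 20802 genes. With no filter edgeR called 2 against eGFP (881 of 14893 genes in all). With the replicate number as a block it called 1 against eGFP and 2 against the 3 controls (590 of 11279 and 558 of 11389 genes). Without eGFP replicate 1 it called 2 against the remaining controls (984 of 11274 genes). Fits with a single library in a group are not counted here.

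**Figure D3:**
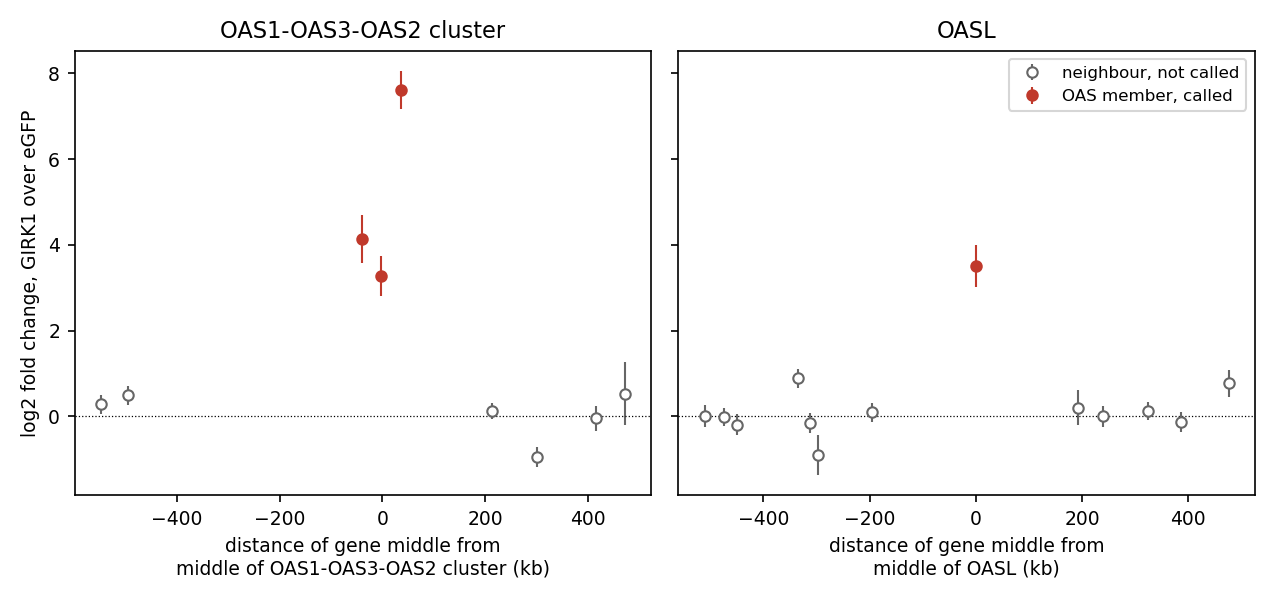
Log2 fold change of MCF10A GIRK1 over MCF10A eGFP (with standard error) against the distance of a gene's middle from the middle of the OAS1-OAS3-OAS2 cluster (left) or of OASL (right), in kb. The members (red, 3.27 to 7.61) stand above tested neighbours (open, -0.95 to 0.88), which did not pass the test.

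The lists of related genes place the family beside other parts of the antiviral response; they were written with earlier results of these data known and are described by counts. Over all 11279 genes tested against eGFP the median log2 fold change was 0.01.

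The list of 12 other double-stranded RNA sensors and binders also holds the adaptor MAVS and the RNA-binding protein ZC3HAV1. Of these 12 genes, 6 rose against eGFP and 0 fell, with a median of 1.54. DDX58, which encodes the sensor RIG-I, went from 17.0 and 23.0 RPM in eGFP to 173 and 239 RPM (log2 fold change 3.33, SE 0.27). The other genes that rose were DHX58 (LGP2, 3.41), IFIH1 (MDA5, a sensor of long double-stranded RNA, 2.62), TLR3 (an endosomal receptor, 2.32), EIF2AK2 (the kinase PKR, 1.87) and ZC3HAV1 (an RNA-binding antiviral protein, 1.74). ADAR, an editor of double-stranded RNA, had 1.33 (SE 0.24, adjusted p = 0.0575, edgeR), just short of the threshold, and passed against the 3 controls (1.25, adjusted p = 0.0422). The adaptor MAVS (-0.14) and the binders PRKRA, TARBP2, DHX9 and STAU1 (-0.38 to 0.37) did not pass. Without GIRK1 replicate 2 the number was 2 of 12. Against the 3 controls it was 6 again, with ADAR in place of DHX58 (2.62, adjusted p = 0.0632, edgeR), and 1 or 2 when eGFP replicate 2 or either GIRK1 library was left out.

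Of the 6 transcription factors read that act on OAS promoters, 3 rose against eGFP. These were the ISGF3 subunits STAT2 (log2 fold change 2.06) and IRF9 (3.16), and IRF7, itself an interferon-induced factor (1.95 and 4.01 RPM against 98.3 and 119 RPM, 5.08). IRF1 (0.92), IRF2 (0.32) and IRF3 (-0.18) did not pass. The same counts, 3 of 6, were obtained against the 3 controls.

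Of 15 other interferon-induced genes, 14 could be tested and 13 rose, with log2 fold changes from 2.43 (HERC5) to 8.28 (IFI6) and a median of 5.25, beside a median of 3.82 for the 4 OAS members. IFI6 went from 35.9 and 15.6 RPM in eGFP to 6613 and 9858 RPM. IFIT1, which binds viral RNA caps, went from 2.34 and 1.56 RPM to 251 and 359 RPM (7.31). MX1, an antiviral GTPase, had 6.30 and 6.96 RPM against 0.390 and 1.66 RPM (adjusted p = 0.0932, edgeR) and did not pass, and MX2, at most 1.35 RPM, was not tested. As with OAS2, 5 of the 14 passed the low-count filter only through the GIRK1 libraries, and 4 of these 5 were among the 13 that rose. Against the 3 controls 13 passed as well, and 7 without GIRK1 replicate 2.

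**Figure D4:**
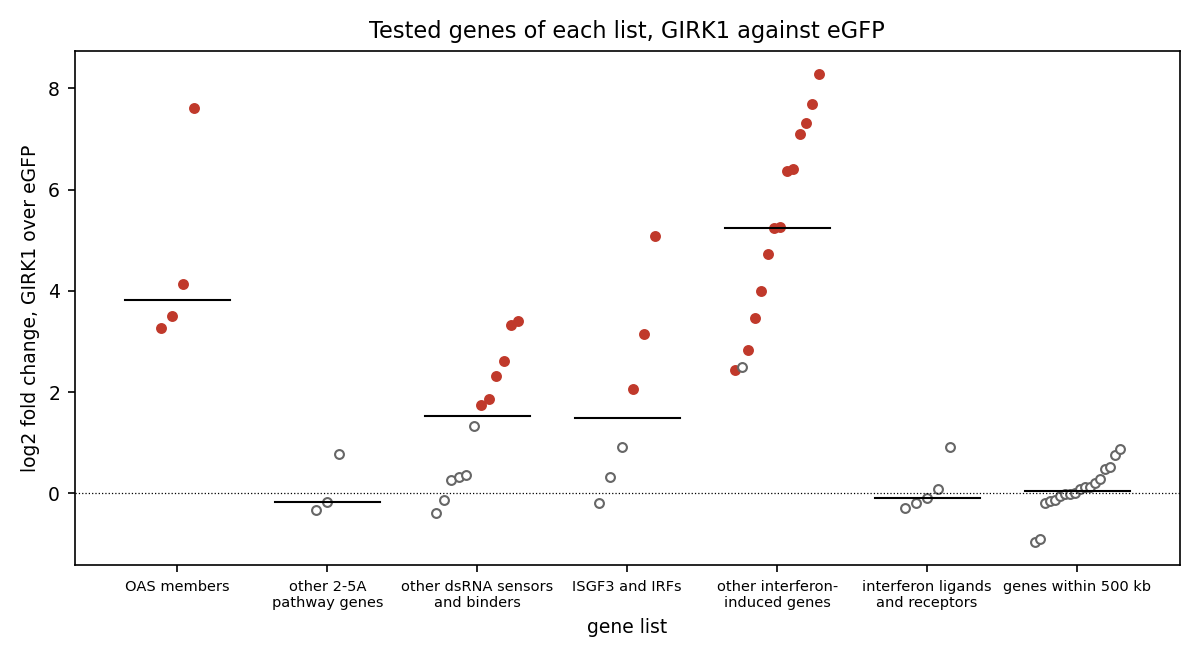
Log2 fold changes of MCF10A GIRK1 over MCF10A eGFP for each tested gene of each list; red points passed an adjusted p of 0.05, open points did not, and bars are list medians. The OAS members (3.27 to 7.61) fall within the range of the other interferon-induced genes (2.43 to 8.28), and the other 2-5A pathway genes and the neighbours lie around 0.

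Interferon transcripts themselves were at or near the floor. IFNA1, IFNK, IFNG and IFNL3 had 0 reads in all 6 libraries. IFNB1 had 2 reads in each GIRK1 library (at most 0.193 RPM), 1 in WT replicate 2 and 0 elsewhere. IFNL1 had 2 and 5 reads in GIRK1 and 0 elsewhere. IFNL2 had 4 reads in GIRK1 replicate 2 and 0 elsewhere, and IFNA2 had 3 reads in GIRK1 replicate 1 and 0 elsewhere. IFNE had at most 8 reads in a library. At this depth no difference in interferon mRNA could be tested. The receptor genes IFNAR1 (25.2 and 27.5 RPM in eGFP, 29.8 and 27.4 RPM in GIRK1) and IFNAR2 (15.4 and 15.3 against 13.0 and 13.0 RPM) had log2 fold changes of 0.08 and -0.28. Of the 5 tested receptor genes, 0 passed in either edgeR comparison or with DESeq2. In each edgeR comparison 1 of the 5 had an unadjusted p below 0.05, beside 2163 of 11279 and 2134 of 11389 genes in all. IFNGR1 (0.92) passed against eGFP without eGFP replicate 2.

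The promoters of these lists were searched for the GAAA repeats shown above for OAS1 and OAS3. A repeat with a spacer of 1 or 2 bases was found in 12 of the 12 interferon-induced genes with a RefSeq entry, in 3 of 10 RNA sensors and binders (EIF2AK2, IFIH1 and TLR3), in 0 of 3 ISGF3 and IRF genes, in 0 of 3 other 2-5A pathway genes and in 4 of 14 interferon ligand and receptor genes, against 7.83% of all 27305 genes with an entry (6.40% of promoters, since a gene can have several). The 1-base form was chosen after the sequences were seen, so these shares are not evidence for the lists. OAS1 and, among the 12 interferon-induced genes, CMPK2 held the 1-base form only. The 2-base form alone was found in 4.38% of all genes with an entry. The interferon-induced genes were listed because of their known response, and the shares were not tested.

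**Figure D5:**
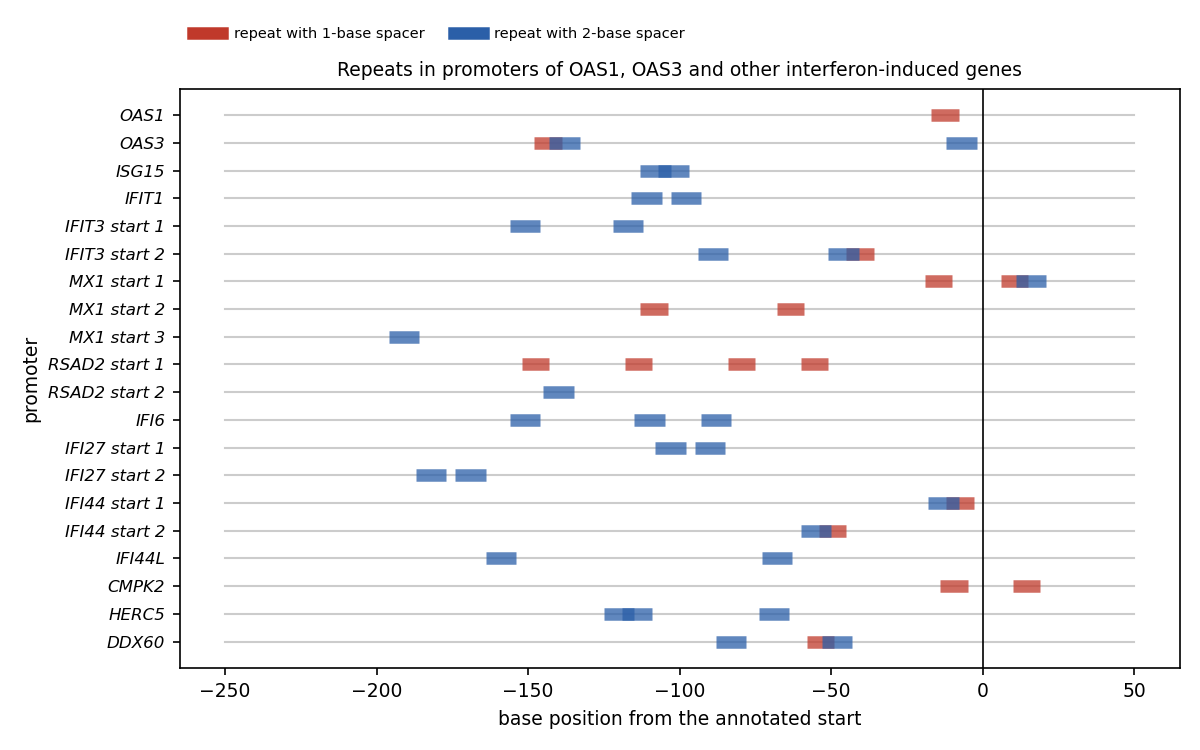
Position of each GAAA repeat with a 1-base (red) or 2-base (blue) spacer, on either strand, in bases from the annotated start (0), for promoters of OAS1, OAS3 and other interferon-induced genes that hold at least one; genes with several annotated starts have a row for each. OAS1 holds 1 repeat and OAS3 holds 3, between -148 and -3.

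The genes with the most similar profile over the 6 libraries were sought for each member, as the smallest root mean square difference of centred log2(RPM + 0.5) among the 11245 genes that averaged 10 reads or more per library. Nearest to OAS1 were IFIT3 (0.41), OAS3 (0.57) and UBA7 (0.61). Nearest to OAS2 were IFIT1 (0.30), IFI44L (0.55) and IFIT3 (0.83). OAS3 was closest to RTP4 (0.25), IFI35 (0.43) and IRF9 (0.44). OASL was closest to KIAA1456 (0.28), ODF3B (0.33) and DHX58 (0.33). No other member was among the 3 nearest genes of OAS2, OAS3 or OASL. The closest member was OAS1 for OAS2 and for OAS3, 7th each time, and OAS3 for OASL, 101st. The neighbours of OASL also depended on the library labelled WT replicate 1, since 1 of the 3 was retained without it. With 6 libraries and 1 large contrast these distances are a description.

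Markers of other cell types were read beside these results. Of the 7 leukocyte markers, PTPRC, CD3E, MS4A1 and LYZ had 0 reads in all 6 libraries, and the list summed to 22.3 to 45.8 RPM in the controls and 31.0 to 35.1 RPM in GIRK1, from CD14 and CD68. The 3 endothelial markers summed to at most 0.391 RPM in the same libraries. The 4 fibroblast markers moved with the group, at 8.60 to 13.7 RPM in the controls and 31.9 to 33.5 RPM in GIRK1, through DCN (0.780 to 10.2 against 25.2 to 27.0 RPM), while COL1A1 was at 2.81 to 9.17 against 4.59 to 8.02 RPM and COL3A1 had 0 reads in all 5. The part of this shift in the OAS levels was not tested.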

How the data were processed

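Total RNA of 6 libraries labelled MCF10A was converted to cDNA and amplified with the Ion AmpliSeq Transcriptome kit and sequenced on an Ion S5 XL. The authors mapped the reads to AmpliSeq_Transcriptome_21K.v1 with the Ion Torrent suite. The deposited counts are whole numbers of reads per amplicon, not normalized; the deposited RPM is each count scaled to its library's total. The deposited coverage (forward and reverse covering reads) served 1 alternative. How reads that match near-identical copies were placed is not given in the sources used here, and the OAS genes are related in sequence. Of 20812 amplicons, 10 spike-in rows, with 0 reads, were left out. Rows were joined by amplicon. Groups and replicate numbers came from the labels.

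The main tests used edgeR 4.0.16 under R 4.3.3 (TMM, filterByExpr, glmQLFit, glmQLFTest) on the counts, with Benjamini-Hochberg adjustment over all genes tested and a threshold of 0.05. The SE of a log2 fold change was its size divided by the square root of F. The procedure was tested on simulated data. Alternatives were DESeq2 1.42.0 and its size factors, library totals, no filter, at least 10 reads in every library, all 6 libraries, covering reads, the replicate number as a block, leaving out each library and, against eGFP, the rule of the study's methods (2-fold, coefficient of variation below 0.7). That rule was applied here only to genes with reads in both groups, a condition the study does not state. KCNJ3, with 0 reads in eGFP, was therefore not counted by it. The same alternatives for the gene lists were added after the data were seen. Intervals are exact (Clopper-Pearson).

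The members and lists were chosen with earlier results of these data known. The rule for named genes was every member, the listed pathway, sensor, factor, interferon-induced, ligand and receptor and neighbouring genes as needed for the counts, and the 3 genes nearest to each member. Some genes of these lists are not reported here and were left out of the list counts, while the fits covered all genes. IFNL1, IFNL2, IFNL3 and IFNLR1 were matched to the older symbols of the files through RefSeq synonyms. Gene positions are from GENCODE v29 (GRCh38) and promoters from RefSeq (GRCh38.p14). The 1-base spacer was chosen after the sequences were seen.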

Additional observations from a re-analysis of the deposited data

Results flagged for a closer look

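KCNJ3 was read 48 times (19.2 RPM, exact 95% interval 14.1 to 25.4) in the library labelled WT replicate 1, which was left out of both comparisons and entered only the fit over all 6 libraries and the profile distances, whereas the other WT library and both MCF10A eGFP libraries had 0 reads. In the same library OAS2 had 0 reads and OAS1, OAS3 and OASL had 6, 27 and 3 reads.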

How the results depend on the processing

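The log2 fold changes of the 4 members were positive in all 47 alternatives against eGFP and all 51 against the 3 controls. Of the 51, the 4 values without WT replicate 2 are those of the main test against eGFP and add nothing to it. They include the upper ends of 7.61 (OAS2) and 3.50 (OASL) in the ranges below. Against eGFP 43 kept their side of the threshold, and the 4 that lost it were those of the fit over all 6 libraries, with OAS1 at 4.11, OAS2 at 7.55, OAS3 at 3.27 and OASL at 3.56 (edgeR adjusted p 0.390 to 0.905). That fit called 0 members and 0 genes against eGFP (606 genes at an unadjusted p below 0.05). Against the controls, then 4 libraries, it called 7 genes and 1 member (OAS2). There OAS1 was at 4.49 (adjusted p = 0.219, edgeR) and OAS3 at 3.66 (adjusted p = 0.161). OAS2 entered the main tests only through the GIRK1 libraries and was bound to differ, so its calls in this section are not evidence for the family. Leaving out 1 library kept 4 members called against eGFP, in fits where the lone library is assumed to vary like the remaining pair, with ranges of 3.44 to 5.25 (OAS1), 6.81 to 8.30 (OAS2), 2.73 to 4.06 (OAS3) and 2.98 to 4.29 (OASL). Against the 3 controls 1 to 4 members were called, 1 without either GIRK1 library, with ranges of 3.85 to 4.69, 6.47 to 7.61, 3.15 to 3.90 and 2.16 to 3.50, and OAS3 was also lost without eGFP replicate 2. OASL passed there with no filter (2.68), DESeq2 (2.75), the replicate block (3.04) and without WT replicate 2 or eGFP replicate 1. With at least 10 reads in every library OAS2 could not be tested, and by the study's rule OAS1 was left out by its eGFP coefficient of variation, which leaves 3 members against eGFP in each case (2 against the 3 controls with at least 10 reads).

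The 172 genes called against eGFP became 881 with no filter, 111 with at least 10 reads, 681 with DESeq2, 1309 by the study's rule and 89 to 2933 without 1 library (2933 without eGFP replicate 2). The 91 higher and 47 lower genes called against the 3 controls became, in all, 374 with no filter, 773 with DESeq2 and 19 to 984 without 1 library (984 without eGFP replicate 1). The count of other 2-5A pathway genes ranged from 0 to 1 without 1 library. Of the lists, 6 of 12 RNA sensors became 1 to 2 against the 3 controls without eGFP replicate 2 or either GIRK1 library, and 13 interferon-induced genes became 7 without GIRK1 replicate 2. The nearest genes by profile shared 1 of 3 with the reported ones for OAS1 and OASL at a pseudocount of 0.1 RPM. The cause of these changes was not tested.

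The correlations of the replicate differences were 0.036 to 0.193 over 9212 genes, the highest between eGFP and GIRK1. The others used the WT pair, whose replicate 1 went against its label, so they cannot show whether same-numbered libraries were paired. The value for eGFP and GIRK1 was low but above 0, and pairing was not tested further. The block therefore rests on the replicate number in the labels. With the block, 590 genes were called against eGFP and 558 against the 3 controls, and 4 members in each.

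Depth limits OAS2 and the interferon transcripts, since 3 reads correspond to 0.187 to 1.20 RPM.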
